A study of Mus musculus with 36 samples.

Results

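The comparison described here is that of untreated BV-2 cells given a Usp18 siRNA with untreated BV-2 cells given a control siRNA. The members were taken by sample title and source name, which put 2 arrays on each side, 4 of 36 arrays in the series. BV-2 is a mouse microglial cell line that was immortalised with an oncogene-carrying retrovirus. The series also holds microglia taken from wild-type (WT) mice, from mice without Usp18 (KO) and from mice with the C61A form of Usp18, each with and without interferon beta (IFN-b) at 500 U/ml for 6 h or 24 h. The other 8 BV-2 arrays are the same siRNAs after 6 h or 24 h of IFN-b. None of the 4 arrays compared had IFN-b, and all 4 carried an siRNA, so that the level without siRNA is not part of the comparison. The labels call the arrays of a group biological replicates. They do not say whether these were separate cultures or transfections, nor the time or dose of the siRNA. The p-values therefore measure the spread between arrays of a group, which may be technical in part. In the main fit this spread was estimated over all 12 BV-2 arrays, those with IFN-b included.

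USP18 is a cysteine protease that removes the ubiquitin-like protein ISG15 from its targets. It also binds the interferon receptor chain IFNAR2 and dampens signalling through the kinases JAK1 and TYK2. Type I interferon acts through that receptor and the factor ISGF3, which includes STAT2 and IRF9 and binds interferon-stimulated response elements in the promoters of antiviral genes. Many cells keep a low, tonic level of this programme without added interferon, and in microglia USP18 is known as a brake on it.

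Among the genes with the largest untreated differences, the promoters of 3 are shown because they carry the element. They are the 250 bases before the transcription start, written 5′ to 3′ on the strand of the gene, from RefSeq on GRCm38.p6. Capitals mark GAAANNGAAA, the core of the interferon-stimulated response element, searched on both strands, where it reads TTTCNNTTTC on the strand printed. Ifit3 and Ifit1 lie near each other on chromosome 19, and Rsad2 lies on chromosome 12.
Ifit3, chr19:34583279-34583528, plus strand: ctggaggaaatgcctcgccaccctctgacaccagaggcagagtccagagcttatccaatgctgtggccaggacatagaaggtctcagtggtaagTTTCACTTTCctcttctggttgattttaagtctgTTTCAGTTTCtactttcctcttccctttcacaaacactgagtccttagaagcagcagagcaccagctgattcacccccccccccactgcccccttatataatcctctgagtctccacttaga
Rsad2, chr12:26456453-26456702, minus strand: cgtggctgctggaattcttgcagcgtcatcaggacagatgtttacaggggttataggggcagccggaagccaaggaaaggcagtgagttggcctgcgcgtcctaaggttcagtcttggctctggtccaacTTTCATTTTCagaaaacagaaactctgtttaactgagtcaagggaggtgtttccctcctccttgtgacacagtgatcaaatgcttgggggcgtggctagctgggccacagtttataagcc
Ifit1, chr19:34640639-34640888, plus strand: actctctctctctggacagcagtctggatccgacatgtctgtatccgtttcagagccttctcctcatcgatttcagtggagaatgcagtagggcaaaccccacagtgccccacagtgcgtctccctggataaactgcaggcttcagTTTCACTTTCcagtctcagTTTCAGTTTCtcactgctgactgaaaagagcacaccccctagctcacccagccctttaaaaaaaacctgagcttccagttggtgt
The first match began 156 bases before the start in Ifit3, 120 in Rsad2 and 104 in Ifit1. Over the windows of 300 bases (250 before to 50 after the start), the motif was held by 12 of the 22 antiviral genes with a window (54.5%) and by 6 of 6 interferon-inducible GTPase genes (100%). Among all genes tested it was held by 245 of 5914 (4.14%), and by none of the 12 cholesterol synthesis genes or the 21 cell division genes with a window. Of the genes higher by at least 1 on the log2 scale, 19 of 41 with a window held it (46.3%). A match describes the letters in the window. Slfn4, which had the largest difference of all, had none, and neither had Ifi209 and Oasl2, which are also among the 8 largest differences.

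Usp18 itself, the target of the siRNA, was read by 1 probe set. Its log2 intensity was 8.38 and 8.59 on the control arrays and 7.92 and 9.0 on the arrays labelled Usp18 siRNA. The siRNA arrays lay on both sides of the controls. The difference was -0.02 ± 0.446 (log2, ± SE, n = 2 a group), with a 95% interval of -1.03 to 0.98 and an adjusted p of 1.00 (limma, Benjamini-Hochberg). A lower Usp18 transcript was therefore not seen in the untreated arrays. The width of this interval reflects 2 arrays a group and the spread within all 6 BV-2 groups, those with IFN-b included. The difference was positive with replicate 1 of the Usp18 siRNA group left out (0.52) and with replicate 2 of the control group left out (0.09). After IFN-b the same probe set read 12.15 and 12.04 in control cells at 6 h, and 11.10 and 12.49 in cells labelled Usp18 siRNA. The value of 12.49 is from replicate 2 at 6 h, a doubted array. It also read high for C1qa, at 9.96 against 3.54 to 5.10 on the other BV-2 arrays. The same held for Fabp7 (9.84 against 2.58 to 3.31) and Ctsh (9.75 against 2.72 to 3.58). The protein was not measured. All directions below are those of the arrays labelled Usp18 siRNA against the arrays labelled control siRNA.

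The remaining values check what the cells were. All 19 microglia and macrophage markers were above the array median on all 4 untreated arrays, among them Csf1r (11.31 to 11.58), Cd68 (12.02 to 12.21) and Tyrobp (11.88 to 12.22). Of 12 markers of resting brain microglia, 3 were above the median on all 4 arrays (Selplg, Tgfbr1 and Mef2c) and 6 on none. P2ry12 (3.02 to 3.54), Sall1 (3.22 to 3.45) and Gpr34 (2.33 to 2.70) were among the 6. None of 9 neuron markers, none of 10 fibroblast and endothelial markers and 2 of 11 astrocyte markers were above the median on all 4. Array medians ran from 5.65 to 5.74, and the 4 arrays correlated with each other at 0.988 to 0.994.

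In cells without added interferon, most antiviral effector genes read higher on both arrays labelled Usp18 siRNA than on both controls. These were 24 of 30, against 16.3% of all genes tested. No single gene passed the test in the main fit, which did not pair arrays by replicate number. Among these 30 genes the median difference was 1.13 on the log2 scale, against 0.02 over all 7163 genes tested. Genes for interferon-inducible GTPases (median 1.72) and Schlafen proteins (median 1.23) stood as far or further apart, whereas the median for the interferon receptors and JAK-STAT proteins was -0.03. Genes of cholesterol synthesis (median -0.36) and cell division (median -0.25) lay below it. The plot of differences by gene list shows each member.

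**Figure D1:**
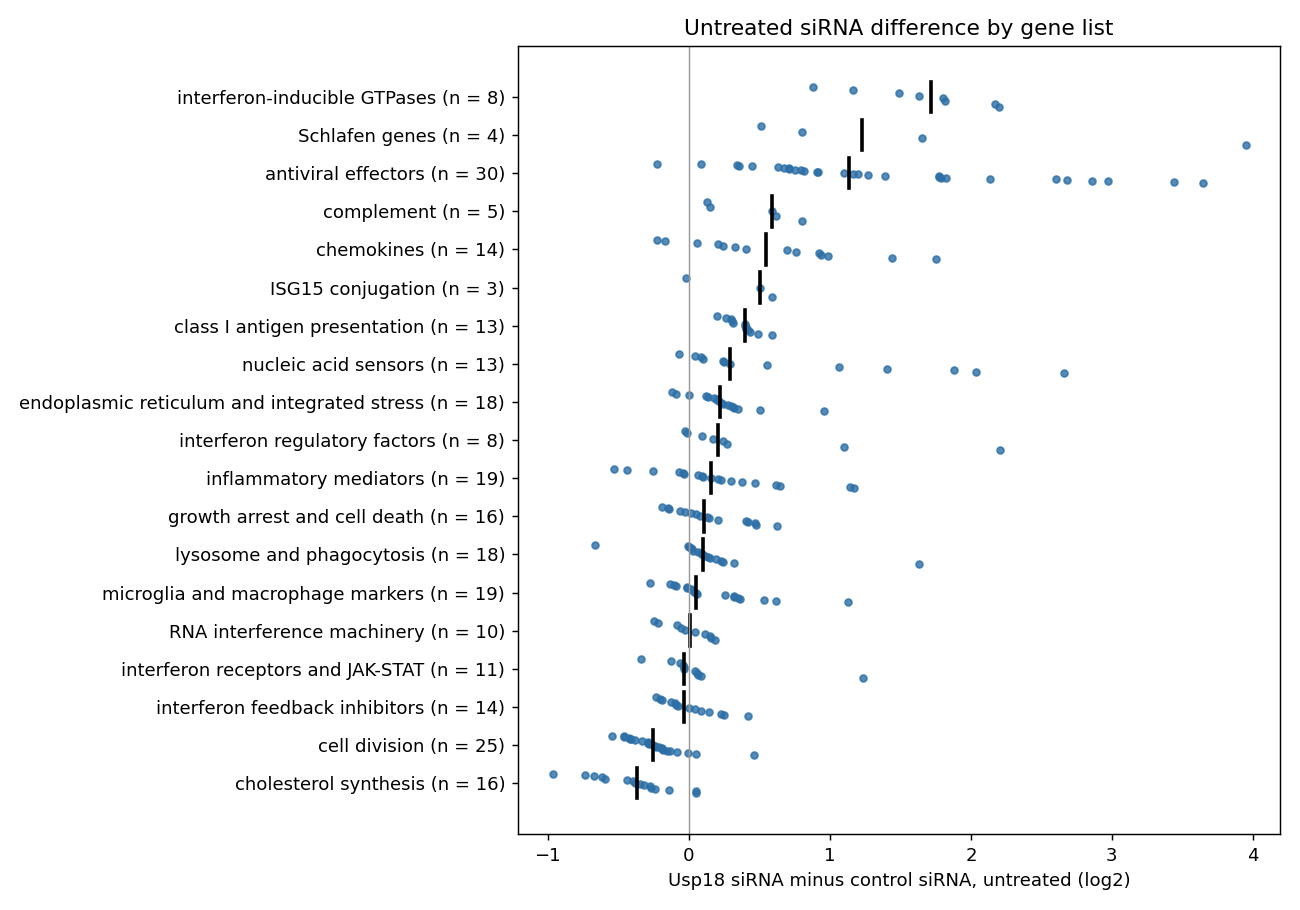
Untreated difference between the siRNA groups for every tested member of 19 gene lists; each point is 1 gene, the horizontal axis is the log2 difference (Usp18 siRNA minus control siRNA), n is the number of genes tested and the black bar is the median of the list. The points of the GTPases all lie to the right of 0, and those of cholesterol synthesis lie mostly to the left.

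By limma with Benjamini-Hochberg adjustment, 0 of 7163 genes passed an adjusted p of 0.05 (0%), and the lowest adjusted p was 0.546. At an unadjusted p under 0.05 there were 133 higher genes (1.86%) and 43 lower genes (0.6%), and no other tool was run. Both arrays labelled Usp18 siRNA lay above both control arrays in 1167 genes (16.3%) and below both in 931 (13%). A difference of at least 1 on the log2 scale was seen upward in 54 genes (0.754%) and downward in 3 (0.0419%). With the replicate number added to the fit as a block, Gbp3, Gm20559 and Mndal passed, and none of the antiviral effectors. With the block on the 4 untreated arrays alone, a setting chosen after seeing the data, more genes passed, antiviral effectors among them. The counts for that setting are in the last section. The labels do not say what arrays of equal number share. Without the untreated Usp18 siRNA replicate 1, the remaining array was compared alone and 4 genes passed: Slfn4 (5.52), Ifit3 (5.73), Rsad2 (4.22) and Oasl2 (3.64), on the assumption that it varies like the other groups.

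Of the 10 higher genes with the smallest p and separate arrays, Ifi204, Rsad2, Gbp6 and Gbp7 are in the interferon lists and 6 are in none. Mndal, a member of the interferon-inducible p200 family of DNA-binding proteins, read 6.36 and 7.09 on the control arrays and 8.26 and 8.94 on the siRNA arrays. Its probe set is of the x_at kind, which can also bind related genes. The gap between the lower siRNA array and the higher control array was wider than either pair's own spread. Its difference was 1.87 ± 0.286 (unadjusted p = 9.4e-05, adjusted p = 0.546 by limma). With the replicate block the adjusted p of Mndal was 0.041 by limma. Ifi204, of the same family, read 6.12 and 6.64 against 7.87 and 8.97, a difference of 2.04 ± 0.367 (adjusted p = 0.546 by limma). Separate arrays were a condition for both genes to be among these 10. Trim12a, a TRIM family gene, read 4.37 and 4.60 against 5.78 and 6.46. Serpinb9b, a serine protease inhibitor, read 7.12 and 7.47 against 8.36 and 8.78. Pla1a, a phospholipase, read 8.38 and 8.56 against 9.40 and 9.24. Ubxn2b (0.85 ± 0.160) and Rnf157 (0.96 ± 0.197, 0.30 on its other probe set) complete the genes outside the lists.

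Slfn4, a Schlafen gene of myeloid cells, had the largest difference of all genes tested. It read 4.95 and 5.87 on the control arrays and 7.79 and 10.93 on the siRNA arrays, so the pairs were separate but the siRNA arrays lay further apart from each other than the lower of them from the higher control array. The difference was 3.95 ± 0.883, about 15.4-fold (adjusted p = 0.688 by limma). Slfn4 on siRNA replicate 2 was as high as in control cells after 6 h of IFN-b, which read 9.69 and 10.98. The other Schlafen genes, Slfn8 (1.65 ± 0.824), Slfn2 (0.80 ± 0.564) and Slfn3 (0.51 ± 0.405), had smaller differences, and the arrays of Slfn2 and Slfn3 overlapped between the groups.

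Of the antiviral effectors, 30 of 32 genes on the array passed the filter on dim probe sets, 29 of the 30 had a positive difference (53.8% of all genes did) and both siRNA arrays were above both control arrays in 24 (16.3% of all genes). Ifitm2, a membrane protein that blocks virus entry, was the exception at -0.22 ± 0.244. Unadjusted p was under 0.05 in 21 of the 30, all higher (1.86% of all genes), and 0 passed adjustment. Without the untreated Usp18 siRNA replicate 2 the list median was 0.58, against 0.02 over all genes in that setting, and 26 of 30 were positive. Without the untreated Usp18 siRNA replicate 1 the median was 1.69.

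The IFIT genes, whose proteins bind viral RNA that lacks host cap marks, showed how unequal the siRNA arrays were. Ifit3, one of the genes whose promoter is printed above, read 4.09 and 5.30 on the control arrays, 6.25 on siRNA replicate 1 and 10.42 on siRNA replicate 2 (3.65 ± 1.06, unadjusted p = 0.0072). Ifit1 read 3.15 and 4.77 against 5.01 and 8.63 (2.86 ± 1.11). Ifit2 read 7.03 and 7.40 against 7.79 and 10.19 (1.77 ± 0.666). In each, both siRNA arrays were above both control arrays and replicate 2 was well above replicate 1. The order was the same in Mx1, which encodes a dynamin-like GTPase against influenza-type viruses, at 3.47 and 3.31 against 4.26 and 7.89 (2.68 ± 1.01).

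Rsad2 and Rtp4 lay over 1 log2 unit above the higher control array on both siRNA arrays. Rsad2, which encodes the radical SAM enzyme viperin, read 7.67 and 7.41 on the control arrays and 9.27 and 11.75 on the siRNA arrays. The difference was 2.97 ± 0.610, about 7.86-fold (adjusted p = 0.546 by limma), and all 3 probe sets of the gene were higher. Rtp4, an interferon-induced transporter-like protein, read 4.13 and 6.63 against 7.96 and 9.67 (3.44 ± 0.768). Its second probe set differed by only 0.54. Isg20, an RNA exonuclease, read 7.50 and 6.15 against 8.30 and 8.93 (1.79 ± 0.407).

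The oligoadenylate synthetase family, which makes the activator of RNase L or related proteins, read higher on the siRNA arrays throughout. Oasl2 read 4.95 and 6.05 against 7.07 and 9.14 (2.61 ± 0.587). Oas2 differed by 1.83 ± 0.488, Oas1a by 1.39 ± 0.394, Oas3 by 1.20 ± 0.311, Oasl1 by 1.16 ± 0.423 and Oas1b by 0.71 ± 0.261. In all 6 both siRNA arrays were above both control arrays (16.3% of all genes). Smaller differences were found for Bst2, which tethers budding virus (0.91 ± 0.317), Ifitm3 (0.75 ± 0.307) and Shisa5 (0.71 ± 0.196). Samhd1, a nucleotide hydrolase, differed by 0.35 ± 0.373, Adar, an RNA-editing enzyme, by 0.34 ± 0.285, and Cmpk2 by 0.09 ± 1.48, and their arrays overlapped between the groups.

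**Figure D2:**
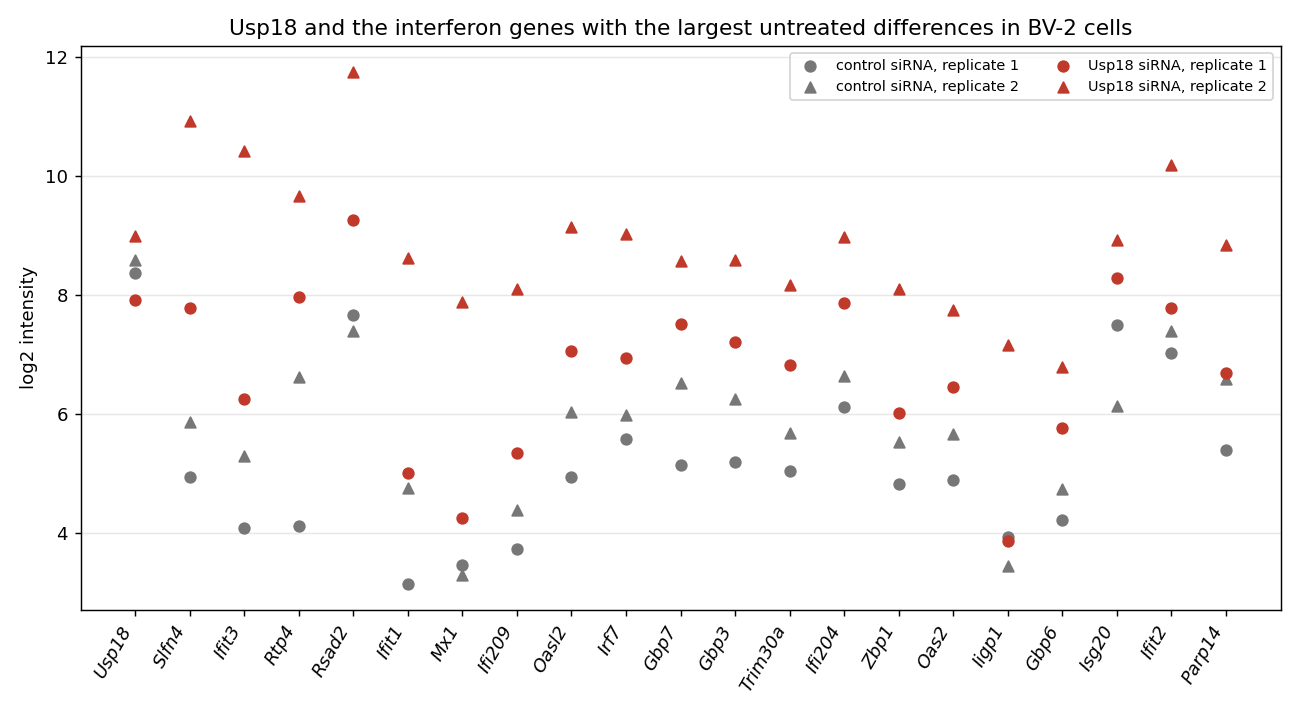
Log2 intensity of Usp18 and of the interferon genes with the largest untreated differences on the 4 untreated arrays; grey marks are control siRNA, red marks Usp18 siRNA, circles replicate 1 and triangles replicate 2. Usp18 is mixed between the groups, while in Slfn4, Ifit3 and Rsad2 both red marks lie above both grey marks and the triangle is highest.

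The interferon-inducible GTPases attack the vacuoles of intracellular pathogens. All 8 tested had a positive difference (53.8% of all genes did), 7 had separate arrays (16.3% of all genes) and 5 had an unadjusted p under 0.05 (1.86% of all genes), with none past adjustment. Gbp7 read 5.15 and 6.52 on the control arrays and 7.51 and 8.57 on the siRNA arrays (2.20 ± 0.453). Gbp3 read 5.21 and 6.26 against 7.21 and 8.59 (2.17 ± 0.512). Gbp6 read 4.23 and 4.75 against 5.78 and 6.80 (1.80 ± 0.345). These guanylate-binding proteins stood apart on both siRNA arrays. Iigp1, an immunity-related GTPase, was high only on siRNA replicate 2, at 3.95 and 3.45 against 3.87 and 7.16 (1.82 ± 1.17).

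Nucleic acid sensors were split. Both siRNA arrays were above both control arrays in 7 of 13 genes (16.3% of all genes), and 5 were higher at an unadjusted p under 0.05 (1.86% of all genes). Ifi209 (2.66 ± 0.811) and Ifi204 belong to the DNA-binding p200 family. Zbp1, which senses Z-form nucleic acid, read 4.83 and 5.53 against 6.01 and 8.11 (1.88 ± 0.589), and its other probe set differed by 0.89. Dhx58, a helicase that binds double-stranded RNA, read 5.96 and 5.93 against 7.07 and 7.62 (1.40 ± 0.293). The other 9 sensors and adaptors of the list differed by between -0.07 and 1.07. The proteins of RNA interference, through which an siRNA acts, had a median difference of 0.01 over 10 genes, and none had an unadjusted p under 0.05.

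The transcription factors of the interferon programme were also split. Irf7, the factor that amplifies type I interferon, read 5.58 and 5.98 on the control arrays and 6.94 and 9.04 on the siRNA arrays (2.21 ± 0.600, unadjusted p = 0.0049). Irf9, the DNA-binding part of ISGF3, read 5.51 and 6.27 against 6.56 and 7.41 (1.10 ± 0.363). Stat2, its partner, read 4.49 and 5.00 against 5.01 and 6.97 (1.24 ± 0.557). In each of these genes the siRNA arrays were above the controls, in Stat2 by a narrow gap on replicate 1. The other 6 interferon regulatory factors lay between -0.03 and 0.27. Among them Irf1 differed by 0.27 ± 0.288, Irf8 by 0.09 ± 0.237 and Irf3 by -0.03 ± 0.211.

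The receptor chains and kinases upstream differed little between the groups. Ifnar1 read 6.82 and 6.85 against 6.74 and 6.86, and Ifnar2, the chain that binds USP18, read 9.57 and 9.34 against 9.35 and 9.49. Their differences were -0.03 ± 0.251 and -0.04 ± 0.198. Jak1 (-0.34 ± 0.253) and Tyk2 (0.04 ± 0.243) did not pass either, and no gene of the 11 in this list had an unadjusted p under 0.05. Of 14 feedback inhibitors such as the SOCS and PIAS genes, none had one, and their median was -0.03. The 10 genes for type I and II interferons on the array lay at or below the array median on all 4 arrays, with Ifnb1 between 3.49 and 3.82, and none was tested.

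For ISG15 conjugation, the pathway in which USP18 works as a protease, 3 genes were measured. Ube2l6, the conjugating enzyme, read 5.82 and 6.18 against 6.30 and 6.88 (0.59 ± 0.253). Uba7, the activating enzyme, read 6.59 and 6.12 against 6.44 and 7.28 (0.50 ± 0.387), and its arrays overlapped. Isg15 was not read here by a probe set of a single gene.

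Class I antigen presentation genes showed small differences in 1 direction. All 13 were positive (53.8% of all genes were), with a median of 0.40 and a range of 0.20 to 0.59, and 9 had separate arrays (16.3% of all genes). Psmb9, an immunoproteasome subunit, read 8.29 and 8.41 against 8.75 and 9.14 (0.59 ± 0.235). Tapbpl (0.49 ± 0.478), Erap1 (0.43 ± 0.229) and Psmb10 (0.42 ± 0.417) had the next largest values. Unadjusted p was under 0.05 in 4 of the 13 (1.86% of all genes were higher at that p).

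Chemokines were less even. Cxcl10, an interferon-induced T cell attractant, read 4.43 and 4.69 on the control arrays and 5.31 and 6.70 on the siRNA arrays (1.44 ± 0.415, unadjusted p = 0.0068). Ccl8 was high only on siRNA replicate 2, at 4.39 and 4.15 against 4.33 and 7.72 (1.76 ± 1.24). Ccl5 (0.99 ± 1.35) and Ccl12 (0.93 ± 1.35) overlapped between the groups and turned negative without that array, at -0.47 and -0.43. Of 19 inflammatory mediators, Il18, a cytokine of the interleukin 1 family, was the only one with an unadjusted p under 0.05, at 6.17 and 6.09 against 6.65 and 6.91 (0.65 ± 0.203). Ptgs2, which encodes cyclooxygenase 2, differed by 1.17 ± 0.655 with overlapping arrays.

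Because replicate 2 carried much of the difference, the array means of the antiviral list were set side by side. They were 6.77 and 7.15 on the control arrays, 7.64 on siRNA replicate 1 and 9.04 on siRNA replicate 2. Replicate 1 was therefore above both controls, and replicate 2 was further above it. The median gap between the replicates over the 30 genes was 1.09 in the siRNA group, with replicate 2 higher in 30 of 30, and 0.32 in the control group, with replicate 2 higher in 21. As each array reads a whole culture, a higher level in every cell and a high level in some of the cells cannot be told apart. Fcgr1 and Aif1, markers of myeloid cells, were also higher on replicate 2 of both groups, Fcgr1 at 6.52 and 8.82 in control and 7.70 and 9.90 in siRNA cells, and Aif1 at 5.80 and 7.50 and at 6.31 and 8.05. In control cells, 6 h of IFN-b shifted Fcgr1 by 2.52 ± 0.940 and Aif1 by 0.62 ± 1.38, neither past the test. The part of Fcgr1 and Aif1 in the result was not tested. Over all 19 microglia and macrophage markers the array means were 10.10 and 10.49 in control and 10.21 and 10.75 in siRNA cells.

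Levels in IFN-b-treated control cells give a scale for these values. The antiviral mean was 9.87 and 9.80 in control cells at 6 h and 9.37 and 9.62 at 24 h. Untreated siRNA replicate 1 was above the lower of the control arrays of 6 h in 1 of 30 antiviral genes, and replicate 2 in 5. The control cells' own response to IFN-b, which shares the untreated control arrays with the siRNA comparison, had a median of 2.24 at 6 h over the same 30 genes, and 19 passed the test (0.991% of all genes rose). The untreated siRNA difference had a median of 1.13 in those genes. At 24 h of IFN-b, on other arrays, the siRNA difference had a median of 1.33, and 8 of the 30 rose (3.07% of all genes did).

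**Figure D3:**
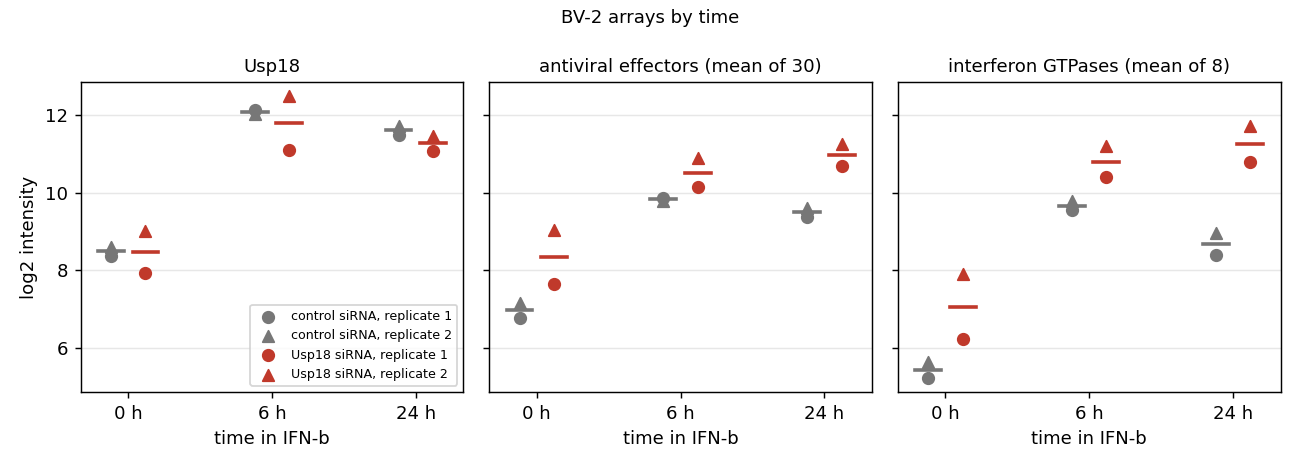
Log2 intensity of Usp18 and mean log2 intensity of 30 antiviral genes and 8 interferon GTPase genes on all 12 BV-2 arrays by hours in IFN-b; grey is control siRNA, red Usp18 siRNA, circles replicate 1, triangles replicate 2 and lines the mean of the pair. At 0 h the antiviral mean of the red marks is 7.64 and 9.04 and that of the grey marks 6.77 and 7.15.

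The siRNA difference in untreated cells was tested against that at 24 h by an interaction term. It passed in 2 of 7163 genes (0.0279%), F8 and Fam3b, named after their values were seen, whose untreated differences were 0.25 ± 0.349 and 0.02 ± 0.174. Both were under the array median on all untreated arrays. The siRNA arrays of 24 h alone were enough to bring them past the filter on dim probe sets, so these calls are not separate support. The count was 1 without the untreated Usp18 siRNA replicate 1 and without either untreated control array. No antiviral gene passed, so a difference in size between 0 h and 24 h was not shown for them. In single genes the values were 3.95 untreated and 1.19 at 24 h for Slfn4, 2.97 and 1.28 for Rsad2, 3.65 and 1.74 for Ifit3, 2.20 and 1.83 for Gbp7, 1.44 and 5.22 for Cxcl10, and 0.09 and 4.18 for Cmpk2. Slfn4, Rsad2, Ifit3 and Gbp7 were further apart without IFN-b than with it, and Cxcl10 and Cmpk2 the reverse, without a passed test of the difference. The former were chosen by their untreated values, so smaller values on other arrays cannot be read as a change with IFN-b. Over the lists the medians were 1.13 untreated and 1.33 at 24 h for antiviral genes, and 1.72 and 2.47 for GTPases.

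Genes induced by interferon in primary microglia were followed as a list that used no BV-2 array. The list held genes that passed an adjusted p of 0.05 (limma) in WT microglia of the first deposition run. Of 597 such genes that rose at least 1 on the log2 scale after 6 h of IFN-b, 548 were tested in BV-2 cells. Their median untreated difference was 0.16, against 0.02 over all genes, and 412 were positive (75.2%, against 53.8%). In 177 (32.3%, against 16.3%) both siRNA arrays were above both controls, and 55 (10%, against 1.86%) were higher at an unadjusted p under 0.05. Of the 54 genes higher by at least 1, 45 were in this list (83.3%, against 7.65% of all genes tested). These 45 are 8.21% of the list's tested members, against 0.754% of all genes. The median without the untreated Usp18 siRNA replicate 2 was 0.08.

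The KO microglia, in which the gene is lost, were compared with the siRNA in 1 fit of 30 arrays and 8160 genes. Untreated, the antiviral mean was 11.35 and 11.03 in KO microglia and 7.31 and 7.65 in WT microglia deposited beside them. Over 32 antiviral genes the KO difference had a median of 3.29 and 29 passed as higher (7.93% of all genes were, and 9.56% were lower), and the siRNA difference had a median of 1.01 and 0 passed. The KO difference was larger in 28 of 32. The difference between the effects passed in 104 genes with the higher value in the KO (1.27%) and 65 with the lower (0.797%), 169 in all, and in 4 of the 32: Oasl1 (5.29 ± 1.02), Oas3 (5.21 ± 0.702), Isg20 (5.09 ± 1.29) and Samhd1 (2.54 ± 0.649). Slfn4, at 7.19 in KO microglia and 3.95 with the siRNA, did not pass (difference 3.24 ± 1.34, adjusted p = 0.203 by limma), and Rtp4, at 2.77 and 3.44, did not either.

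The comparison with the KO rests on few arrays. The array labelled untreated WT replicate 1 of the third deposition run stood apart with an antiviral mean of 10.63 and Usp18 at 12.97, against 7.61 and 9.31 on its replicate. It enters the KO comparison through the spread, the filter and the choice of probe set, not through the group means compared. Without it, and without its replicate, the median difference between the effects over the antiviral genes stayed at 2.28. How many genes passed the test of unequal effects depended on the arrays left out. The number of genes was 27 without KO replicate 1 and 471 without KO replicate 2. It was 51 and 35 without either WT array of the first run, 31 and 81 without either Usp18 siRNA array, and 40 and 43 without either control siRNA array. With KO set against all 4 untreated WT arrays and no deposition run, 2 genes and none of the antiviral genes passed, and the median difference between the effects over the antiviral genes was 1.43 in place of 2.28. Usp18 lay at 4.40 and 3.77 in KO and at 5.68 and 5.99 in WT microglia. Cell system, culture and the means used (gene lost or siRNA given) differ together here and cannot be told apart. In BV-2 cells a lower Usp18 transcript was not seen on the untreated siRNA arrays.

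**Figure D4:**
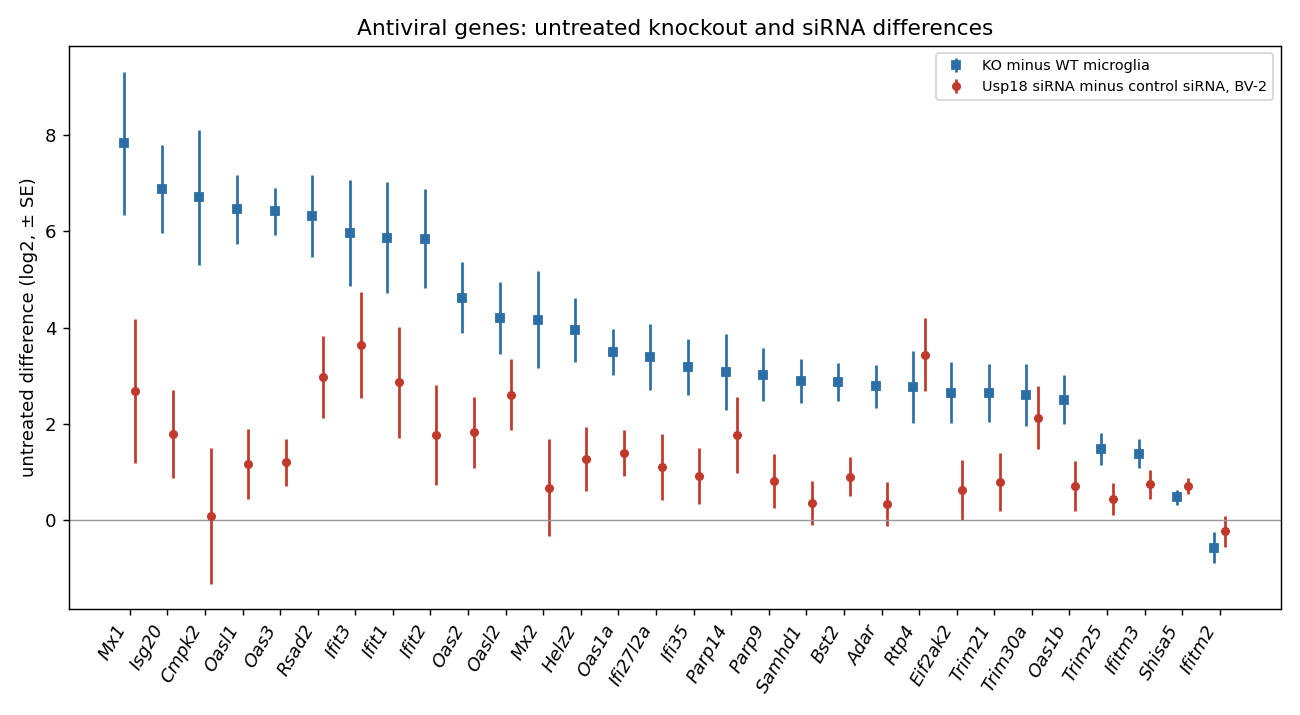
Untreated log2 differences of the 30 antiviral genes read in both fits, ordered by the knockout difference; blue squares are KO minus WT microglia, red circles Usp18 siRNA minus control siRNA in BV-2 cells, and bars are the standard error. Blue lies above red in 27 of the 30, and below it in Rtp4, Shisa5 and Ifitm2.

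Genes lower on the arrays labelled Usp18 siRNA were fewer and their differences smaller. Cnot6, a deadenylase subunit that shortens mRNA tails, had the smallest unadjusted p among them (0.0025). It read 9.58 and 9.43 on the control arrays and 8.73 and 8.80 on the siRNA arrays, a difference of -0.74 ± 0.181 (adjusted p = 1.00 by limma), and all 4 of its probe sets were lower. Septin2, a cytoskeletal GTPase, read 9.71 and 9.72 against 9.17 and 9.23 (-0.52 ± 0.150). Lig1, the DNA ligase of replication, differed by -0.47 ± 0.153 and Cbx5, a heterochromatin protein, by -0.53 ± 0.170. Hcst (-0.50 ± 0.149), Dyrk1b (-0.53 ± 0.152), Nudcd3 (-0.48 ± 0.152), 2810025M15Rik (-0.64 ± 0.208), Tinf2 (-0.44) and Mad2l1 (-0.63) complete the 10 lower genes with the smallest p and separate arrays.

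Most cholesterol synthesis genes read lower on the arrays labelled Usp18 siRNA. Of 16 genes, 14 had a negative difference (3309 of all 7163 genes did), and 10 had both siRNA arrays below both control arrays (13% of all genes). Unadjusted p was under 0.05 in 6, all lower (0.6% of all genes), and none passed adjustment. Mvd, of the mevalonate pathway, read 7.47 and 6.68 on the control arrays and 6.42 and 5.80 on the siRNA arrays (-0.97 ± 0.373). Fdps, which makes farnesyl diphosphate, read 10.12 and 9.95 against 9.38 and 9.23 (-0.73 ± 0.317). Msmo1, a sterol oxidase, read 9.63 and 9.51 against 8.90 and 9.01 (-0.62 ± 0.231). In these genes the groups did not overlap. Srebf2, the factor that drives the pathway, read 7.13 and 6.35 against 6.26 and 5.88 (-0.67 ± 0.293), while its other probe set differed by -0.14. The list mean was 7.95 and 7.74 in control and 7.53 and 7.37 in siRNA cells, so that the replicates of each group lay closer together than in the antiviral list.

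**Figure D5:**
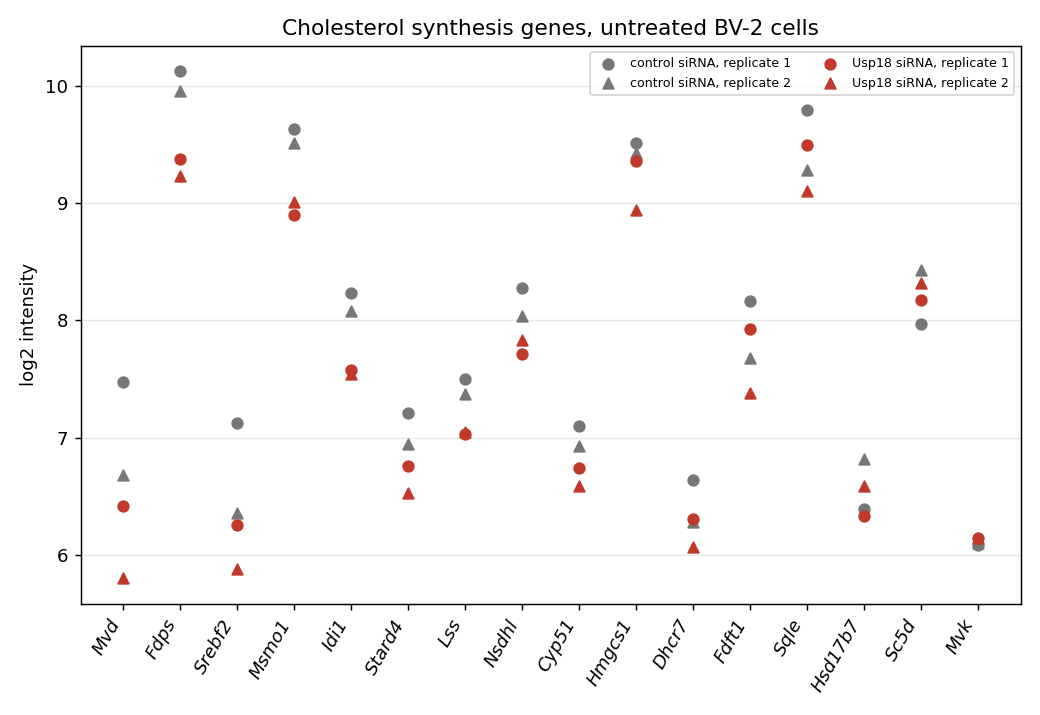
Log2 intensity of 16 cholesterol synthesis genes on the 4 untreated BV-2 arrays, ordered by the difference; grey marks are control siRNA, red marks Usp18 siRNA, circles replicate 1 and triangles replicate 2. In Mvd, Fdps and Msmo1 both red marks lie below both grey marks.

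Most cell division genes read slightly lower. Of 25, 23 had a negative difference (3309 of all 7163 genes did), 15 had separate lower arrays (13% of all genes) and none had an unadjusted p under 0.05. Cdc20, an activator of the anaphase complex, read 10.08 and 10.35 against 9.60 and 9.75 (-0.55 ± 0.349). Ccnd1, a cyclin of the growth phase, had the opposite sign at 0.46 ± 0.428, with overlapping arrays. Plk1, a mitotic kinase, differed by -0.46 ± 0.319. At 24 h of IFN-b the median of the list was -0.96 and 6 genes fell (2.28% of all genes did). Genes of endoplasmic reticulum and integrated stress had a median of 0.22, and Ddit3, which encodes the stress factor CHOP, was highest on siRNA replicate 2, at 8.31 and 8.63 against 8.50 and 10.35. Growth arrest and cell death genes had a median of 0.10, with 1 of 16 at an unadjusted p under 0.05.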

How the data were processed

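Total RNA of 36 samples was measured on Affymetrix mouse expression arrays. Per the submitters' processing notes, affy was used. Its version, the normalization and the log base were not given in the sources used here. Values the authors deposited were read as log2 intensities from their range, an inference, and used as they stand; 2 arrays a group limit the precision. Of 22690 probe sets, 20393 had 1 gene, 691 several and 1606 were not listed; only those with 1 gene were named. A probe set was kept if at least 2 of the 12 BV-2 arrays had it above their median, and the brightest kept probe set read the gene, leaving 7163 genes. The 12 BV-2 arrays in 6 groups were fitted with limma 3.58.1 in R 4.3.3 (empirical Bayes, Benjamini-Hochberg over all genes, adjusted p under 0.05), checked on simulated data. A second fit held BV-2, KO and WT arrays (30 arrays, 8160 genes), with KO set against WT of its deposition run, which is a candidate batch only. Of 436 genes in 28 lists, 375 were on the array. Members and lists were chosen with earlier results of these data known. Named genes are Usp18, members of the ISG15, receptor, regulatory factor and antiviral lists, up to 10 genes a direction with the smallest p and separate arrays, and up to 4 members of each other list with the largest change. F8 and Fam3b, and 4 genes compared between the KO and the siRNA, were named after their values were seen. Alternatives covered the samples fitted, replicate block, centring, quantile normalization, filters, probe set choice, variance model, doubted arrays and single arrays left out. Figures were drawn in Python 3.11.15.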

Additional observations from a re-analysis of the deposited data

Results flagged for a closer look

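The siRNA difference untreated minus that at 24 h of IFN-b was -4.18 for F8 and -3.24 for Fam3b (limma interaction, adjusted p = 0.0435 and 0.0020). Both read 3.47 to 4.45 on the 4 untreated arrays, under every array median, and 7.01 to 9.55 on the siRNA arrays of 24 h. The latter arrays alone were enough to bring both genes past the filter on dim probe sets.

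The untreated KO difference minus the untreated siRNA difference was 5.29 for Oasl1, 5.21 for Oas3, 5.09 for Isg20 and 2.54 for Samhd1, and 169 genes passed this test in all.

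Among the 4 untreated WT microglia arrays, the one labelled replicate 1 of the third deposition run had an antiviral mean of 10.63 against 7.31 to 7.65 on the others. Its gap to the nearest array over the range was 0.897, above the 95% critical value of Dixon's test for 4 arrays, which chance exceeds in about 1 of 20 groups.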

How the results depend on the processing

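The count of genes passing in untreated cells was 0 and stayed 0 when the 4 untreated arrays were fitted alone, after median centring or repeated quantile normalization, with either other filter, with the mean over probe sets, with trend and robust settings and without the 6 h Usp18 siRNA array that read high for C1qa (9.96, against 3.54 to 5.10 on the others). It was also 0 without both treated Usp18 siRNA arrays of number 2, a setting chosen after seeing the data. With the replicate block it was 3 (Gbp3, Gm20559 and Mndal), and with the replicate block on the 4 untreated arrays, also chosen after seeing the data, 39. Of these 39 genes, 9 were among the 25 antiviral effectors tested in that setting. Same-numbered deviations correlated at 0.232 to 0.759 between BV-2 groups, positive in every pair of groups, and at 0.506 between the untreated groups. This is a hint only, as there are 2 replicate numbers and the labels do not say what arrays of equal number share. Leaving out single arrays gave 0 to 4 genes, a Usp18 difference of -0.56 to 0.52 (reversed at 0.52 and 0.09), an antiviral median of 0.58 to 1.69 and a median of the WT-induced list of 0.08 to 0.24. All other settings gave an antiviral median of 1.01 to 1.16. The interaction with 24 h passed in 2 genes, in 16 with the replicate block and in 1 to 2 without single arrays. The KO against siRNA test passed in 169 genes, in 2 with no deposition run, in 399 with the replicate block and in 27 to 471 without single arrays. Of 641 values of 44 named genes, 4 reversed: Irf4, Ccl5 and Ccl12 without Usp18 siRNA replicate 2, and Ccl5 (-0.27) without control replicate 1. Over the arrays left out Irf4 ranged from -0.029 to 0.51, Ccl5 from -0.47 to 2.45 and Ccl12 from -0.43 to 2.30. The cause was not tested. Signal near the floor of the arrays (Mx1, Ifit1 and Cmpk2 in control cells) limits the size of differences.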
